A study of Homo sapiens with 5 samples.

Results

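Among the H3K27me3 domains of DMSO-treated HT1376 cells, 1857 of 21641 lay outside every called EZH2 domain and yet still held an H3K27me3 call after the EZH2 inhibitor CPI-0209. They are the H3K27me3 DMSO domains under 60 kb that overlap no EZH2 DMSO domain and share at least 1 bp with an H3K27me3 CPI-0209 domain, a domain being the union of overlapping intervals of 1 list. These domains were chosen by their H3K27me3 and EZH2 calls, so those calls are given below as a description, without a test. HT1376 is an established human bladder carcinoma line. Chromatin immunoprecipitation with sequencing was carried out with antibodies to EZH2 and to H3K27me3 on formaldehyde-fixed cells given 250 nM CPI-0209, or the vehicle DMSO, for 8 days by the treatment note; the extraction note names 4 days as well. This gave the groups EZH2 CPI-0209, H3K27me3 CPI-0209, EZH2 DMSO and H3K27me3 DMSO, with 1 library in each, and 1 input library labelled for both treatments that was not used here. All groups are the same cell line, and nothing in the labels names separate cultures.

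Polycomb repressive complex 2 (PRC2) methylates lysine 27 of histone H3, and EZH2 is a catalytic subunit of it, though not the only possible one. The trimethylated form, H3K27me3, marks repressed chromatin, and PRC2 is known to nucleate at unmethylated, CG-rich DNA and to spread the mark outwards from there. H3K27me3 is lost from a region by dilution through cell division and by the demethylases KDM6A and KDM6B once its synthesis stops. The lists hold called intervals only, in hg38 coordinates and in steps of 200 bp, with no score or count, so depth is unknown and a missing call does not show that EZH2 or the mark was absent. Calls from a bulk culture cannot tell less mark per cell from fewer marked cells. With 1 library per group no difference between conditions or between classes of domains could be tested; brackets give exact (Clopper-Pearson) 95% binomial intervals, which cover counting error only, and neighbouring domains are not independent.

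The promoters below are shown as examples for the count of CG dinucleotides described further on. Its median differed between starts in the part of a domain still called for H3K27me3 and starts in the part no longer called. Each is a RefSeq promoter of GRCh38.p14 from 250 bases before to 50 bases after a listed start of the gene, written 5′ to 3′ on the gene's strand, with every CG in capitals. For CSF1R, COL11A2 and TOX2 this start lies inside the gene record and not at its outer end. The first 6 start inside a stretch of H3K27me3 that was still called in CPI-0209 and were taken in the order of the ranking used for named domains; they hold 4 (CSF1R), 9 (CELF3), 25 (PRSS50), 46 (FGF22), 9 (COL11A2) and 17 (RGS14) CG dinucleotides.
CSF1R, chr5:150086505-150086804, minus strand: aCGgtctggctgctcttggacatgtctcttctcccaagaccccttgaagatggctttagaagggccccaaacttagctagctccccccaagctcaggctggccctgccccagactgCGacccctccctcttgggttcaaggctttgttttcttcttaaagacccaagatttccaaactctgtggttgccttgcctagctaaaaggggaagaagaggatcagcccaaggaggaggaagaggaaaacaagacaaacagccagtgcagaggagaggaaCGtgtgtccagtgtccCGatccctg
CELF3, chr1:151716754-151717053, minus strand: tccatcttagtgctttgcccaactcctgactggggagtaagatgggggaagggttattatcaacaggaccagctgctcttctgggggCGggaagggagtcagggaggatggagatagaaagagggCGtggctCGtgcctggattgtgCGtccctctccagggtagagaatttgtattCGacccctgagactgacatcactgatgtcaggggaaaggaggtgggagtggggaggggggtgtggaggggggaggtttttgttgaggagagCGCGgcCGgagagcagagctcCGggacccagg
PRSS50, chr3:46717820-46718119, minus strand: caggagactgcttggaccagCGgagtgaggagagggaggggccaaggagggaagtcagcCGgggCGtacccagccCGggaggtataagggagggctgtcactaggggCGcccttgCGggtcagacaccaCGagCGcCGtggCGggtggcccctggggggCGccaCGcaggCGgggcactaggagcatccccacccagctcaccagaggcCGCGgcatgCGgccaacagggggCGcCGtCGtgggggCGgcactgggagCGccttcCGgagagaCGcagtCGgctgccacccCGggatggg
FGF22, chr19:639629-639928, plus strand: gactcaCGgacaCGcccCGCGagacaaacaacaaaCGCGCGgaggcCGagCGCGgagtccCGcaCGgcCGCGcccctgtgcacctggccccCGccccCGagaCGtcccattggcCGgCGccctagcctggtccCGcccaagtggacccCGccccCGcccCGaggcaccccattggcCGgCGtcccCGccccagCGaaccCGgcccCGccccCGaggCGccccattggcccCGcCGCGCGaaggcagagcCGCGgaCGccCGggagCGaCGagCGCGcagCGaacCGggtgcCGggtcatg
COL11A2, chr6:33177543-33177842, minus strand: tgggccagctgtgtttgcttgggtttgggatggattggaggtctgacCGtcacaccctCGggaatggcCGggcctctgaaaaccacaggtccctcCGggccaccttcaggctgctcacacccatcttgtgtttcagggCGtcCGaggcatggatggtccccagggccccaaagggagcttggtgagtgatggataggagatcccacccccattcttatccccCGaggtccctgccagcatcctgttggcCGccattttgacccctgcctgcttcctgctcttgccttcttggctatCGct
RGS14, chr5:177357674-177357973, plus strand: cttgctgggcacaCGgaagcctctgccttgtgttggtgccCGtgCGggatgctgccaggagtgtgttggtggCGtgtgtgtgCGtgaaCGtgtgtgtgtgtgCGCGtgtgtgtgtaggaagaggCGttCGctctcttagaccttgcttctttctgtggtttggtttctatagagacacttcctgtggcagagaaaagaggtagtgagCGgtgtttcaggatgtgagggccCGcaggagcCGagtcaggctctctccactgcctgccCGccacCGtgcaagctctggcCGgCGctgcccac
For contrast, the promoter of TOX2 starts inside such a domain but outside the stretch still called, and was the first of this kind in the same order. It holds 10 CG dinucleotides, more than CSF1R, CELF3 and COL11A2, so single promoters do not follow the medians given further on.
TOX2, chr20:43945646-43945945, plus strand: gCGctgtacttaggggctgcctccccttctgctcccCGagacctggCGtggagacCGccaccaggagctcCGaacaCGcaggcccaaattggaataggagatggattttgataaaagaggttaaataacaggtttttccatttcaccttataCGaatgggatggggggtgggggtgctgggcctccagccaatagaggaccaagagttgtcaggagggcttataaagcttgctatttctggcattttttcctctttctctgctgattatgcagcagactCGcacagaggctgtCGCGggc

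The retained domains were of middling width and mostly kept the mark over only a part of it. In CPI-0209 a domain held a median of 3.20 kb of called H3K27me3 (quartiles 2 and 5 kb, range 0.200 to 30.4 kb), while its width in DMSO had a median of 10.2 kb (quartiles 6.60 and 15.6 kb, range 0.400 to 59.8 kb). The share of the DMSO width still called had a median of 33.3% (quartiles 20.9% and 50%). It reached 50% or more in 485 domains and 100% in 20, and stayed under 10% in 107. Summed over the 1857 domains, 7.25 Mb was called in CPI-0209 and 22.7 Mb in DMSO, which is 31.9% of the length. "Retained" therefore refers to a call somewhere in the domain, and not to the whole of it. The 1857 are 13.7% of the 13524 EZH2-free DMSO domains under 60 kb, and over all 20965 DMSO domains under 60 kb 39.2% met a CPI-0209 call. This share was 5.58% (4.83 to 6.40) for domains up to 4.2 kb wide, 8.02% up to 6.6 kb, 13.8% up to 10 kb and 28.0% (26.5 to 29.6) above that. The part called ran the other way, with a median of 57.1% of the width in domains up to 4.2 kb and 26.9% in those over 10 kb.

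**Figure D1:**
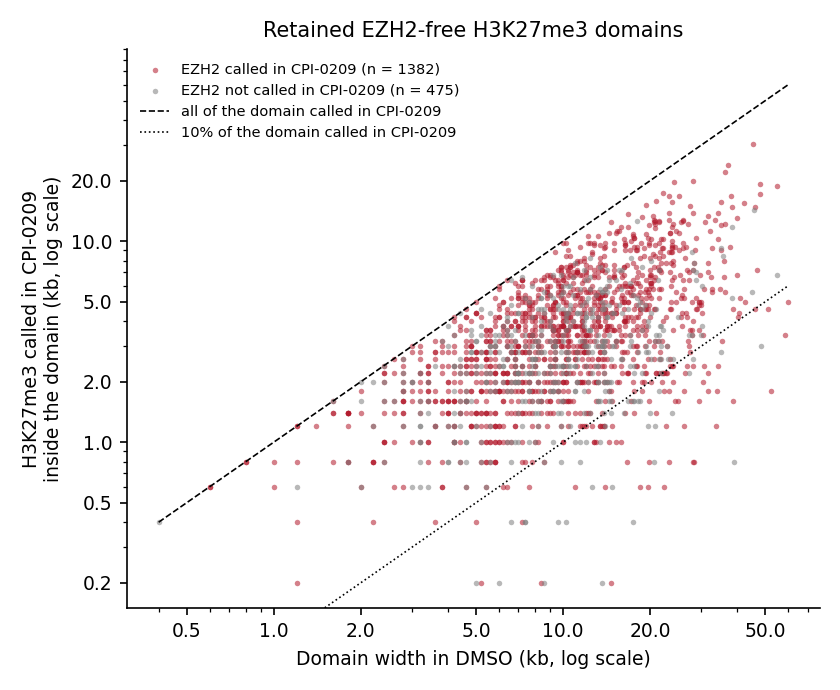
Each point is 1 of the 1857 domains, with its DMSO width in kb on the x axis and the H3K27me3 length called inside it in CPI-0209 in kb on the y axis, both on log scales. Red points have an EZH2 call in CPI-0209 (n = 1382) and grey points do not (n = 475); the dashed line marks a domain called over its full width, which 20 domains reach, and the dotted line 10% of it.

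At the width limit, the 3 domains just under 60 kb measured 59.8, 58.4 and 55 kb and kept 5, 3.40 and 18.8 kb of H3K27me3 in CPI-0209. The 3 domains of this kind just above the limit measured 61.0, 61.2 and 72.0 kb and kept 9, 6.60 and 2.60 kb. Values on the 2 sides of the limit overlap, and lifting the limit adds only 5 domains (1862).

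The stretch left behind was usually a single one inside the domain. In CPI-0209, 1718 domains (92.5%) held 1 stretch of H3K27me3, 120 held 2, 16 held 3 and 3 held 4, which made 2018 stretches with a median of 3 kb and a maximum of 23.8 kb. Of these, 1716 (85.0%) had DMSO-called mark on either side within the same domain, and 1525 (75.6%) were centred in the inner 50% of the domain's width. A stretch that fills 50% or more of its domain must be centred there, and shorter ones are also limited by their length. The 75.6% is therefore partly set by length, and no preference for the middle of the domain was tested. The CPI-0209 call reached an edge of the DMSO domain in 302 domains (16.3%) and ran past it in 178 (9.59%), over 0.285 Mb in all. In 46 domains (2.48%) the CPI-0209 domain also joined a second DMSO domain.

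Single domains show these patterns at genes. The ranking by length called in CPI-0209 gave first, among domains with a protein-coding gene nearby, the 37.2 kb domain at CSF1R, the receptor for colony-stimulating factor 1 on macrophages (chromosome 5, 150057001 to 150094200). In CPI-0209 it kept 23.8 kb of H3K27me3 in 2 stretches and carried 19.6 kb of EZH2, of which 15.8 kb lay on the kept mark; the start shown above lies in the second stretch. No EZH2 domain of the DMSO list lay within 52.8 kb. The 28.2 kb domain at CELF3, a neuronal RNA-binding splicing regulator (chromosome 1, 151704401 to 151732600), kept 20 kb and carried 26.6 kb of EZH2 in CPI-0209. At SPN, which encodes the leukocyte sialoglycoprotein CD43, 17.4 of 22.2 kb was kept (chromosome 16, 29653001 to 29675200), and all 17.4 kb lay under EZH2 in CPI-0209. The domain at STAB1, a scavenger receptor of macrophages and endothelium, kept 16.8 of 23.2 kb. PRSS50, a testis-expressed serine protease, had 13.4 of 20.4 kb kept in 4 stretches, with EZH2 over the whole domain in CPI-0209.

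In other domains of this ranking the kept stretch lay away from the gene position scored. The 55 kb domain at TOX2, an HMG-box transcription factor (chromosome 20, 43920001 to 43975000), kept 18.8 kb, all of it under EZH2 in CPI-0209, and the scored start lay 1305 bp from the kept stretch. SRARP, a steroid receptor-associated protein, lay 236 bp from the kept stretch of a 27.4 kb domain with 15 kb kept. The domains next to SHLD1, a subunit of the shieldin complex of DNA repair, CRY2, a circadian repressor, ADGRG5, an adhesion G protein-coupled receptor, and ARFGEF2, a guanine nucleotide exchange factor of membrane traffic, kept 14.8, 13.8, 12.4 and 12.2 kb. Their kept stretches lay between 1789 bp (ADGRG5) and 8393 bp (SHLD1) from the gene position scored.

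Ranked by percent of the width kept, among domains of 5 kb or more with a gene nearby, the first was FGF22, a fibroblast growth factor (chromosome 19, 637001 to 642000). Its 5 kb domain was called in full in CPI-0209 and lay in full under CPI-0209 EZH2, with the nearest EZH2 DMSO domain 17.8 kb away. The others were COL11A2, a chain of cartilage collagen XI, with 98.0% of 10.0 kb, CCDC166 with 93.6% of 9.40 kb, APOL4, an apolipoprotein L, with 91.7% of 7.20 kb, and CLEC3B, which encodes tetranectin, and RGS14, a regulator of G protein signalling, each with 88.9% of 7.20 kb. APOL4 was the one of these 6 with no EZH2 call in the domain in CPI-0209, and its nearest EZH2 DMSO domain was 138.6 kb away. Of the 6 widest domains, TOX2 (above) kept 34.2% of its 55 kb and the other 5 kept 3.44 to 12.4%. Those of 59.8 and 58.4 kb, on chromosomes 14 and 13, had no protein-coding gene position nearby and kept 8.36% and 5.82%. The domain at ABCA4, a retinal lipid transporter, kept 12.4% of 54.8 kb, the one at the CD300C, CD300H and CD300LB genes of the CD300 receptor family kept 3.44% of 52.4 kb, and a 51.2 kb domain on chromosome 14 (22461601 to 22512800) kept 8.98%.

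**Figure D2:**
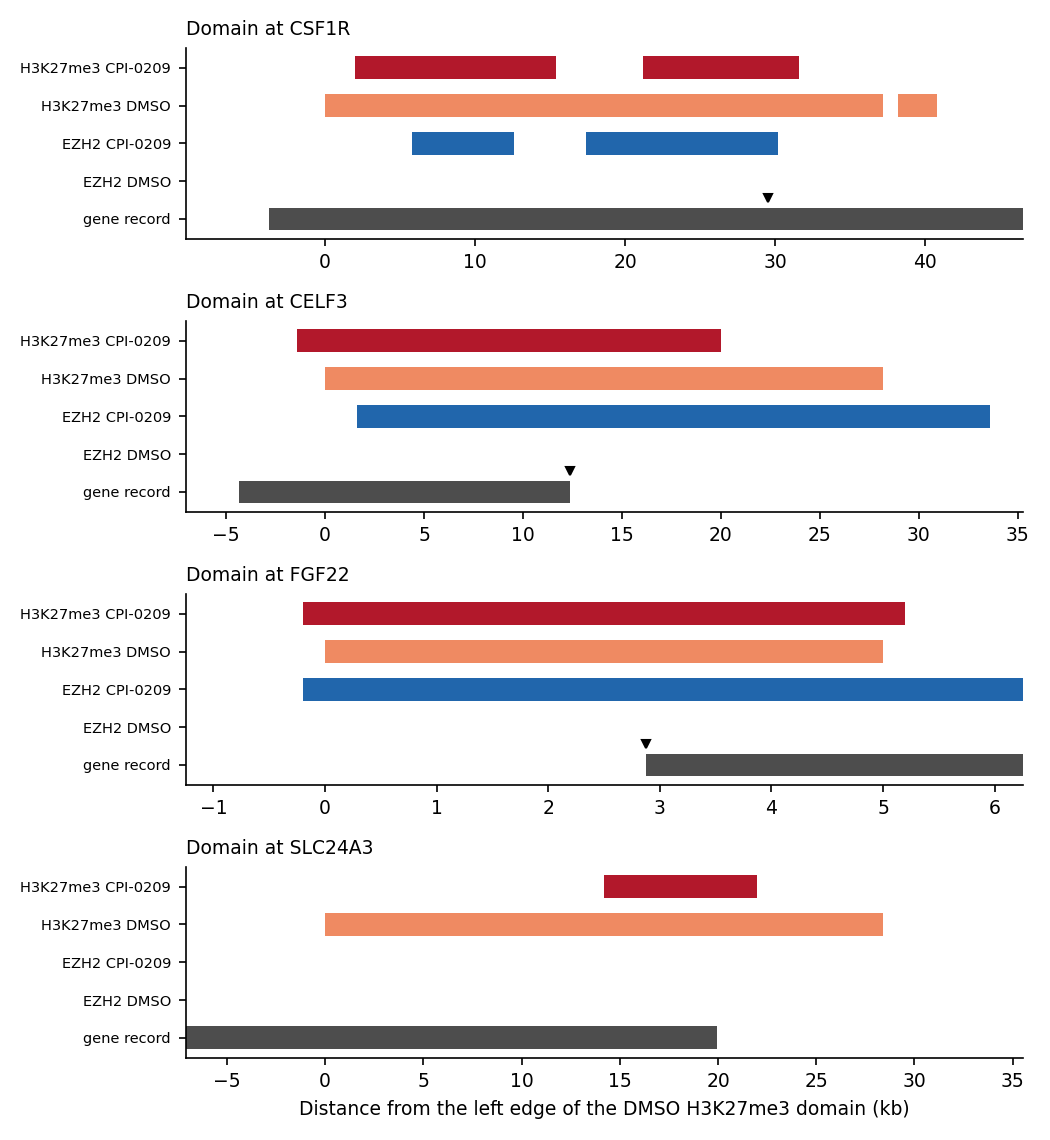
Called domains at 4 of the retained domains, as distance in kb from the left edge of the DMSO H3K27me3 domain, with H3K27me3 CPI-0209 above H3K27me3 DMSO, then EZH2 CPI-0209 above EZH2 DMSO, and the gene record with scored starts as triangles. No EZH2 DMSO call falls in any window; the kept mark meets EZH2 CPI-0209 at CSF1R, CELF3 and FGF22, and SLC24A3, chosen to show the other case, has 7.80 kb of kept mark and no EZH2 call.

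EZH2 in CPI-0209 cells was the one list the choice of domains did not use. Of the 1857 retained domains, 1382 (74.4%, 72.4 to 76.4) overlapped an EZH2 CPI-0209 domain, against 2347 of the 11667 EZH2-free domains that were not retained (20.1%, 19.4 to 20.9). With EZH2 CPI-0209 limited to stretches under 2 intervals of its list, the shares were 22.4% and 2.45%. With both H3K27me3 lists so limited they were 75% of 16 retained domains and 42.9% of 8732 others. Over retained and not retained domains together, with all calls, the share was 27.6%, and over all DMSO domains under 60 kb 51.6%. Among retained domains that did carry EZH2 in DMSO, 6276 of 6357 (98.7%) had EZH2 in CPI-0209. EZH2-bound domains under 60 kb that were not retained had it in 803 of 1084 (74.1%, 71.4 to 76.7). That share is close to the 74.4% of the retained EZH2-free domains, so it was not particular to retained domains. By length, EZH2 in CPI-0209 covered 39.1% of the retained EZH2-free domains (8.86 of 22.7 Mb) and 10.9% of those not retained (9.46 of 86.9 Mb). Read the other way, 37.1% (35.5 to 38.6) of the EZH2-free domains with EZH2 in CPI-0209 were retained, and 4.85% (4.43 to 5.29) of those without. The EZH2 CPI-0209 list also covers more of the genome than the EZH2 DMSO list, 226.3 Mb against 193.4 Mb, and the part of that difference in these shares was not tested.

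In retained domains this share differed little between width classes. EZH2 was called in CPI-0209 in 73.2%, 72.6%, 71.6% and 76.6% of retained domains from the narrowest to the widest class, and in 15.5%, 15.6%, 20.3% and 32.1% of those not retained. The intervals of the 2 kinds of domain did not overlap in any width class. The share was higher in retained domains on 23 of 23 chromosomes, at 62.5 to 86.2% against 12.9 to 29.5%.

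**Figure D3:**
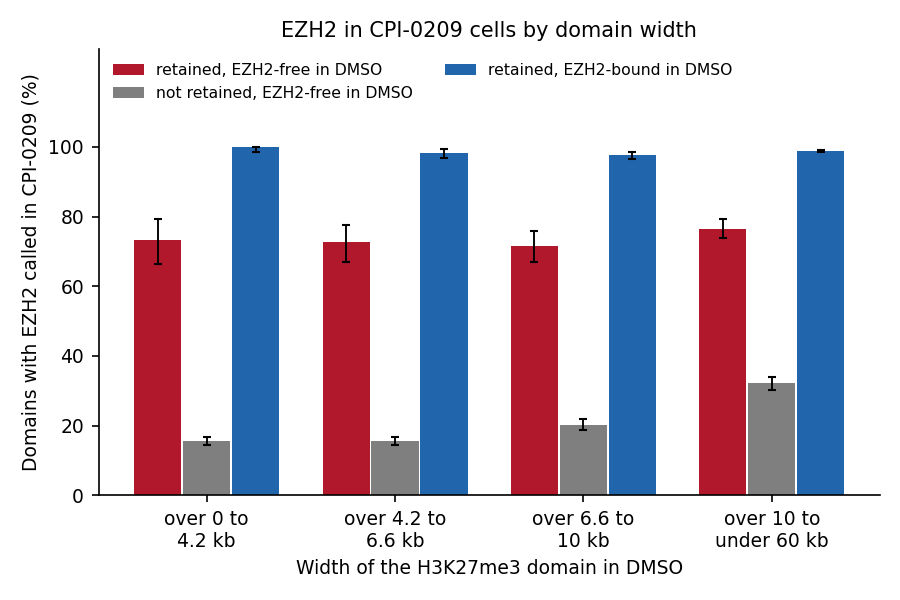
Bars give the percent of H3K27me3 DMSO domains with an EZH2 CPI-0209 call in 4 width classes, for retained EZH2-free domains (red), EZH2-free domains that were not retained (grey) and retained EZH2-bound domains (blue), with exact 95% binomial intervals. Red bars lie between 71.6 and 76.6%, grey bars between 15.5 and 32.1%, and blue bars at 97.8% or more.

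Some of these EZH2 calls were continuous with EZH2 domains already called in DMSO. Of the 1382 retained domains with EZH2 in CPI-0209, 61 (4.41%, 3.39 to 5.63) met an EZH2 CPI-0209 domain that also touched an EZH2 DMSO domain, against 103 of 2347 (4.39%) not retained. The median distance to the nearest EZH2 DMSO domain was 21.4 kb for retained domains (quartiles 7.6 and 59.8 kb) and 34.6 kb for those not retained (12.6 and 86.4 kb). From the narrowest to the widest of the 4 width classes it was 44.5, 30.4, 20.9 and 18 kb for retained domains. Those not retained gave 41.6, 38, 31.2 and 28 kb, so the order was reversed in the narrowest class. Retention was 20% within 5 kb of an EZH2 DMSO domain, 16.9% at 5 to 20 kb, 12.6% at 20 to 50 kb, 11.1% at 50 to 100 kb and 9.85% beyond. Width also differed between the nearest and the farthest of these distance classes. Its median was 10.4 against 7.6 kb for retained domains and 6.6 against 5.4 kb for the others. The parts of width and distance in retention were not separated. In the same 5 classes, EZH2 in CPI-0209 was called in 79.0% (74.1 to 83.4), 75.4%, 70.6%, 76.4% and 71.0% (65.3 to 76.2) of retained domains and in 30.5%, 23.2%, 19.5%, 15.9% and 15.7% of the others. Within 5 kb of an EZH2 DMSO domain, 18.95% of the retained domains with EZH2 in CPI-0209 met an EZH2 CPI-0209 domain that touched one, against 21.7% of those not retained. Beyond 50 kb the share was 0 in both, and over all distances the EZH2 CPI-0209 domains had median widths of 5.2 kb on retained domains and 3.8 kb on the others.

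Within a domain, EZH2 and the kept mark tended to lie on the same stretch. In retained domains 64.9% of the length still called for H3K27me3 in CPI-0209 lay under EZH2 CPI-0209 (4.70 of 7.25 Mb), against 26.9% of the length no longer called (4.16 of 15.4 Mb). Of the 1382 domains with EZH2, the 2 calls shared at least 1 bp in 1322 (95.7%), and 1417 of the 2018 kept stretches (70.2%, 68.2 to 72.2) met EZH2. These 1382 domains had medians of 10.4 kb in width, 3.40 kb of kept mark and 5 kb of EZH2. Such lengths leave the 2 calls little room to miss each other, and overlap from length alone was not tested. EZH2 was also called beyond the kept mark, since 53.1% of its length in these domains fell on it. In the 1718 domains with 1 stretch, EZH2 CPI-0209 was called at the centre of 66.1% of stretches, at 21.9% of positions 4 kb towards higher coordinates and at 23.9% of those 4 kb towards lower ones. The kept mark itself was called at 5.70% and 6.17% of these positions.

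**Figure D4:**
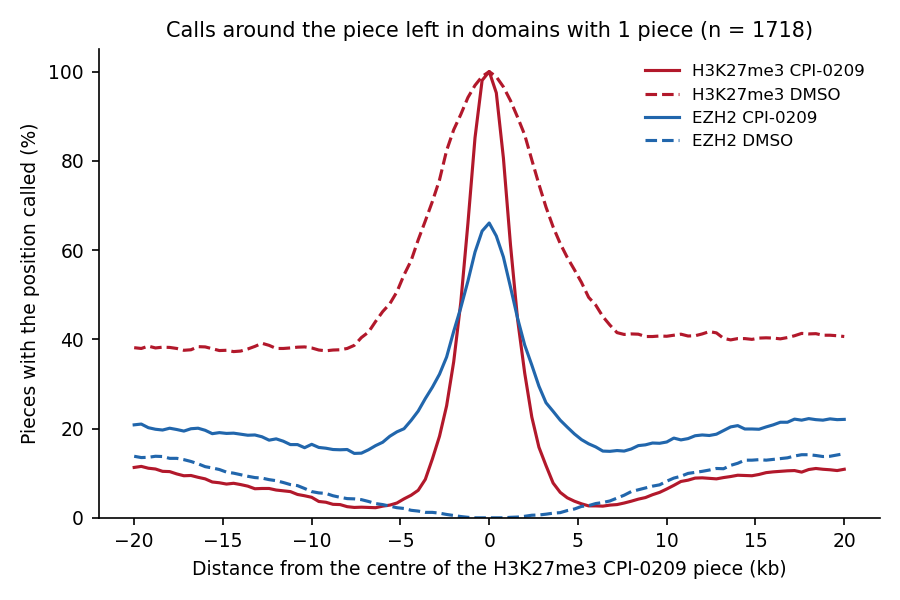
The x axis is the distance in kb from the centre of the kept stretch in the 1718 domains with 1 stretch, and the y axis the percent of them with that position inside a called domain, in solid lines for CPI-0209 and dashed lines for DMSO. EZH2 CPI-0209 peaks at 66.1% on the centre, where EZH2 DMSO is 0 because the domains were chosen that way.

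The other 475 retained domains had no EZH2 call in either condition. They kept a median of 2.60 kb (29.4% of the width), against 3.40 kb (34.8%) in the 1382 with EZH2, and their quartiles of 1.80 and 4.00 kb overlap those of 2 and 5.40 kb. Their widths were close, with medians of 9.80 and 10.4 kb. The nearest EZH2 CPI-0209 domain lay a median of 13.8 kb away, and 19 of the 475 (4.00%) had one within 1 kb. A protein-coding start lay inside 32 of the 475 (6.74%, 4.65 to 9.38) and inside 230 of the 1382 (16.6%, 14.7 to 18.7). EZH2-free domains not retained gave the same order, at 318 of 9320 without EZH2 in CPI-0209 (3.41%) and 204 of 2347 with it (8.69%).

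A further measure from the H3K27me3 DMSO list moved with retention. Intervals of a list overlap in places. A stretch under 2 intervals of the DMSO list was present in 1542 retained domains (83.0%, 81.3 to 84.7) and in 4165 not retained (35.7%, 34.8 to 36.6), with 42.2% over both. From the narrowest to the widest of the 4 width classes the shares were 45.3%, 64.6%, 84.9% and 95.4% of retained domains. Those not retained gave 12.6%, 27.3%, 44.0% and 68.6%, so the measure also rose with width. EZH2-bound domains under 60 kb had such a stretch in 98.3% where retained and 78.5% where not retained. In the retained EZH2-free domains, such stretches made up 79.1% of the length kept in CPI-0209 and 46.1% of the length not kept. The labels do not say what the overlap stands for, and its part in the result was not tested. Where domains had such a stretch, EZH2 in CPI-0209 was called in 76.3% of retained domains and 32.3% of the others, and where they had none, in 65.4% and 13.4%. Domains over 10 kb with such stretches over at least 50% of the length gave 79.1% (75.8 to 82.2) and 41.4% (38.1 to 44.8). In CPI-0209 itself only 16 retained domains (0.862%) held a stretch under 2 H3K27me3 intervals, against 1170 of the 6357 EZH2-bound ones (18.4%).

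Genes lay near the retained domains more often than near the EZH2-free domains that were not retained. A protein-coding gene end was within 2 kb of 513 retained domains (27.6%, 25.6 to 29.7) and of 1415 not retained (12.1%, 11.5 to 12.7), with 14.3% over both, while retained EZH2-bound domains gave 50%. EZH2-bound domains under 60 kb that were not retained gave 29.3% (26.6 to 32.1), close to the 27.6%. In the 4 width classes the shares were 32.1%, 29.2%, 24.1% and 27.9% of retained domains and 9.54%, 11.7%, 12.4% and 15.9% of those not retained. A protein-coding start given in the RefSeq promoter table was inside 262 retained domains (14.1%, 12.6 to 15.8) and inside 522 of the others (4.47%), with 5.8% over both. EZH2-bound domains under 60 kb gave 32.0% where retained and 14.3% (12.3 to 16.5) where not retained. No such start lay inside 1595 of the retained EZH2-free domains. Of the retained EZH2-free domains, 523 overlapped no protein-coding gene record and had no gene end of any kind within 2 kb. Among these 523, EZH2 was called in CPI-0209 in 347 (66.3%, 62.1 to 70.4), against 773 of 4716 such domains not retained (16.4%, 15.3 to 17.5).

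At most starts inside the retained domains, the kept stretch lay on the start. The table gives 321 protein-coding starts of 274 genes in them, of which 219 (68.2%, 62.8 to 73.3) lay in the kept stretches, which hold 31.9% of the length. Over all starts in EZH2-free domains 23.4% were in H3K27me3 called in CPI-0209, and over all 22132 protein-coding starts 15.2% were. EZH2 CPI-0209 covered 242 of the 321 (75.4%), including 195 of the 219 in kept stretches (89.0%, 84.1 to 92.9) and 47 of the 102 outside them (46.1%, 36.2 to 56.2). It covered 198 of 616 starts in domains not retained (32.1%, 28.5 to 36.0), 47% of the starts in both kinds of domain, and 60.2% of starts outside DMSO H3K27me3 altogether.

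CG content differed between starts in and outside the kept stretches as groups, with overlap between single promoters such as those printed above. Promoters whose start lay in a kept stretch had a median of 20 CG dinucleotides in 300 bases (quartiles 9 and 29.5), those in retained domains but outside the kept stretch 5 (3 and 8.75), and those in domains not retained 6 (3 and 13). Retained EZH2-bound domains had a median of 21 and all protein-coding promoters 21. Of the starts in EZH2-free domains with 20 or more CG dinucleotides, 110 of 230 (47.8%, 41.2 to 54.5) were still called for H3K27me3 in CPI-0209, against 51 of 164 (31.1%) with 10 to 19, 28 of 217 (12.9%) with 5 to 9, and 30 of 326 (9.20%, 6.30 to 12.9) with 4 or fewer. EZH2 CPI-0209 followed the same order more steeply, at 90.9%, 63.4%, 35.5% and 15.3%. Where EZH2 was called on the start, the mark was kept at 51.7% (44.7 to 58.6) with 20 or more, 43.3% with 10 to 19 and 33.1% (25 to 42.0) with 9 or fewer. Without EZH2 on the start it was kept at 24 of 497 (4.83%, 3.12 to 7.10). CG-rich starts with no H3K27me3 call in CPI-0209 could carry EZH2 as well, since the 198 starts under EZH2 in domains not retained had a median of 19.

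**Figure D5:**
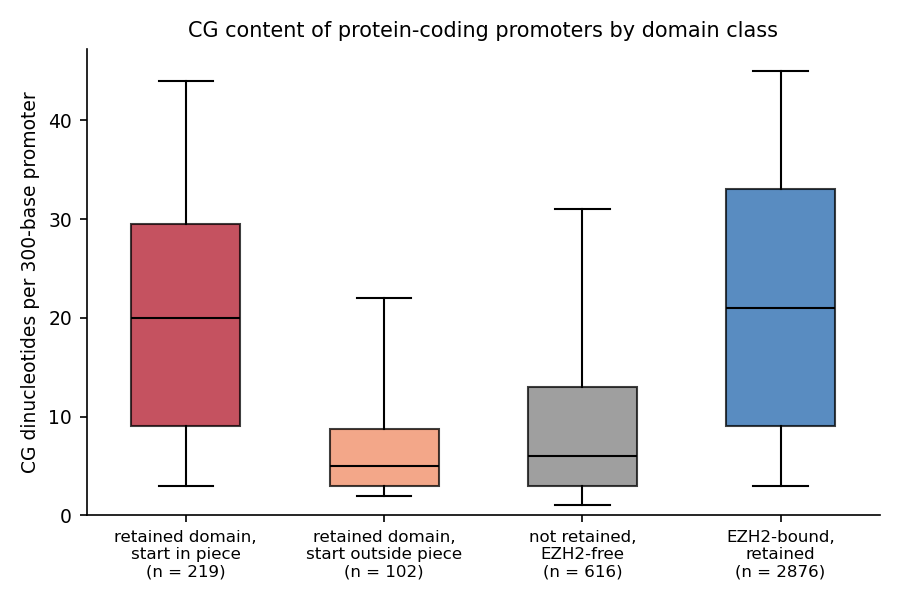
CG dinucleotides per 300-base promoter of protein-coding genes, for starts in kept stretches of retained EZH2-free domains, starts elsewhere in those domains, starts in EZH2-free domains not retained and starts in retained EZH2-bound domains; boxes give the quartiles with the median as a line, and whiskers the 5th and 95th percentiles. The medians are 20, 5, 6 and 21.

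Short motifs were searched on both strands of the same 300 bases, without regard to overlap with each other. GGGCGG, the core of the box bound by SP1-type factors, was found in 57.1% (50.2 to 63.7) of promoters with a start in a kept stretch, in 28.4% (19.9 to 38.2) of those elsewhere in retained domains and in 28.2% of those in domains not retained, against 56.3% of all protein-coding promoters. TATAAA, the consensus TATA box, was found in 7.76%, 15.7% and 13.0% of these promoters and in 9.46% of all, with overlapping intervals for the first 2. The letters CCAAT were found in 28.3%, 28.4% and 35.2%, and in 34.6% of all. A match describes the letters in this window and is not a site of binding.

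HOX and developmental genes, Polycomb's best-known targets, lay largely at domains that the choice left out. Those were EZH2-bound in DMSO or 60 kb or wider, so the absence of these genes here is largely set by that choice. Of all 19974 protein-coding genes, 581 (2.91%) had a gene end within 2 kb of a retained EZH2-free domain, 405 of them within 2 kb of the kept stretch. None of the 39 HOX genes, the 80 developmental transcription factors, the 28 neuronal, 29 keratinocyte, 20 urothelial or 20 blood cell genes was among them. Nor was any of the 37 antigen presentation and interferon genes, 13 cell cycle inhibitors, 14 PRC2 and H3K27 demethylase genes, 22 SWI/SNF subunits, 20 housekeeping genes or 92 ribosomal protein genes. With a share of 2.91% over all genes, lists of these sizes can hold no such gene by counting error, and none of these lists was tested. Of the HOX genes, 6 were at EZH2-bound retained domains and 34 at domains of 60 kb or more, a gene near both kinds being counted in each. Of the developmental factors, counted likewise, 56 were at EZH2-bound retained domains, 15 at domains of 60 kb or more, 1 at an EZH2-free domain that was not retained and 9 at no domain. By gene end, a single listed gene was found for WNT, BMP, FGF and hedgehog genes (WNT4, 1 of 43), muscle genes (CKM, muscle creatine kinase, 1 of 16), liver genes (AHSG, the plasma protein fetuin-A, 1 of 14) and imprinted genes (KCNK9, a potassium channel, 1 of 28). The lists are not complete: FGF22, FGF23 and the imprinted gene DIO3 are outside them and were also at retained domains. The imprinted gene MEST had a start in a kept stretch (2.20 of 2.60 kb) but no gene end within 2 kb, so it was not counted. At WNT4, a ligand of kidney and gonad development, whose start lay 504 bp outside it, the domain measured 19.8 kb (chromosome 1, 22143601 to 22163400), kept 9.60 kb and held 9.20 kb of EZH2 in CPI-0209.

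Mesenchymal genes gave 2 of 21. At SNAI1, a repressor of E-cadherin, the domain on chromosome 20 (49985801 to 50021000) measured 35.2 kb, kept 12 kb in 2 stretches and lay under EZH2 in CPI-0209 over 34.4 kb. At VIM, which encodes vimentin, a 7.20 kb domain kept 0.400 kb, and the scored start lay 160 bp from it. PRC1 genes gave 2 of 19, CBX7, a reader of H3K27me3, with 2.80 of 9.40 kb kept, and PHC2 with 1.20 of 12.6 kb kept. These shares, 9.52% and 10.5%, rest on 2 genes each and were not tested.

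Among gene families with any member at these domains, the shares ran from 1.06 to 8.45%, on either side of the 2.91% of all protein-coding genes. Olfactory receptors had 9 of 392 genes, with kept stretches at 7, such as OR1K1, where 7.80 of 11.2 kb was kept, OR1R1 (0.800 of 3.40 kb), OR2AT4 (2.60 of 10.2 kb) and OR2B11 (2.40 of 12 kb). Zinc finger genes had 14 of 557, among them ZKSCAN4 (6.20 of 7.80 kb kept), ZNF12 (6.20 of 16.4 kb), ZNF177 (1.80 of 4.80 kb) and ZNF354C (2.20 of 6.40 kb). Solute carriers had 18 of 394, including the chloride transporter SLC12A5 with 9.80 of 19.8 kb, the carboxylate transporter SLC13A3 with 2.20 of 26.4 kb, the urate transporter SLC22A12 with 4.80 of 7.6 kb, and the sodium, potassium and calcium exchanger SLC24A3 with 7.80 of 28.4 kb. Potassium channels had 4 of 95. KCNA3, a voltage-gated channel of T cells, lay at 2 such domains (1.60 of 2.80 kb and 0.400 of 2.20 kb kept), KCNA6 kept 2.20 of 12.4 kb, KCNK3 9.40 of 18.0 kb and KCNK9 2.60 of 5 kb.

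G protein-coupled orphan receptors had 6 of 71 (8.45%), with GPR151 (2.40 of 10.0 kb kept, no EZH2 call), GPR173 (2.20 of 10.2 kb) and GPR179 (8.40 of 19 kb). Cytochrome P450 genes had 3 of 55, CYP11A1, the first enzyme of steroid synthesis (6.40 of 14.4 kb, no EZH2 call), CYP2A6 (2.20 of 7.20 kb) and CYP2J2 (7.20 of 11.2 kb). Interleukins and their receptors had 3 of 85, namely IL19 (3.20 of 35.4 kb), IL32 (4.20 of 4.6 kb) and IL34, a second ligand of the CSF1R receptor (9.40 of 37.6 kb). Clustered protocadherins had 2 of 53 (PCDHB4 and PCDHGA1, with 1.60 of 6.60 and 1.80 of 7.80 kb). Keratin-associated proteins had KRTAP10-9 (1 of 94), collagens COL18A1 (1 of 44), histones H1-7, a linker histone (1 of 76) and serpins SERPINB9, a granzyme B inhibitor with a retained domain on either side (1 of 34). All these counts are by gene end. The kept lengths given for gene families are those of the domain, and the kept stretch can lie away from the gene. It lay 25702 bp from the scored position at IL34, 14228 bp at SLC13A3 and 5611 bp at GPR151. At IL19 this distance was 2949 bp, and at the SERPINB9 domain with a scored start it was 9092 bp. COL11A2 (above) had a start in its kept stretch but no gene end within 2 kb, so the collagen count leaves it out. H2BW1, a histone gene outside the list of 76, had its start in a kept stretch of 2 kb in a 19 kb domain.

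Some genes were picked after their values were seen, because their start lay in the kept stretch and their function is well known; they stand for no group. At CFTR, the epithelial chloride channel, 2.60 of 4.6 kb was kept and 4.00 kb lay under EZH2 in CPI-0209, with no EZH2 DMSO domain within 150.4 kb. CXCL12, a chemokine, kept 4.6 of 6 kb, and all 4.6 kb lay under EZH2 in CPI-0209; the nearest EZH2 DMSO domain was 375.4 kb away. NPY, neuropeptide Y, kept 2.20 of 6.40 kb at 279.6 kb from EZH2 DMSO, and GHR, the growth hormone receptor, 2.20 of 3.40 kb at 515.4 kb. At CASR, the calcium-sensing receptor, 2.20 of 10.6 kb was kept at 191.8 kb. DPPA4, a pluripotency-associated gene, kept 3.40 of 12.2 kb at 740.4 kb. BOLL and MAEL, which act in germ cells, kept 2.60 of 3.60 kb and 6 of 15.6 kb, at 15.2 kb from EZH2 DMSO in each case, and both kept stretches lay in full under EZH2 CPI-0209.

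Of 1558 microRNA hairpins, 8 lay in the retained EZH2-free domains (22.7 Mb), 6 of them in a kept stretch. Domains that were not retained held 35 in 86.9 Mb, and retained EZH2-bound domains held 164 in 130.1 Mb; no difference per length was tested. One of the 6 is MIR1247 on chromosome 14, in a 9 kb domain that kept 6.80 kb and lay in full under EZH2 in CPI-0209. Its 2 mature products, on the minus strand of GRCh38.p14, are shown from RefSeq with the seed (bases 2 to 8) in capitals, since it is the one of the 6 with the most kept mark. Their seeds differ.
hsa-miR-1247-5p, chr14:101560362-101560383: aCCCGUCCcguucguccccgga
hsa-miR-1247-3p, chr14:101560326-101560349: cCCCGGGAacgucgagacuggagc

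Chromosomes differed in the share of EZH2-free domains that was retained. It was lowest on chromosome 18 (29 of 434, 6.68%, 4.52 to 9.46), chromosome 13 (33 of 357, 9.24%) and chromosome 6 (72 of 753, 9.56%). The highest shares were on chromosome 20 (70 of 351, 19.9%, 15.9 to 24.5), chromosome 19 (94 of 482, 19.5%) and chromosome 16 (80 of 440, 18.2%). The X chromosome had 53 of 480 (11.0%, 8.38 to 14.2), whose interval overlaps the 13.7% of the whole.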

How the data were processed

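HT1376 ChIP libraries for EZH2 and H3K27me3, in CPI-0209 and DMSO, were each represented by 1 list of called intervals deposited by the authors. Per the file headers a list holds chromosome, start and end only, with no score, count or p-value. The submitters' processing notes list BWA, SICER and the hg38 build, but neither their order nor any parameter, and do not say how the input library was used. A deeper or cleaner library yields more and wider calls, and depth is unknown.

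Every start and width was checked to be a multiple of 200 bp, with ends inclusive. Overlapping intervals of a list were merged in Python 3.11.15 (numpy 2.4.6, pandas 2.3.3, scipy 1.17.1), and the interval code was tested on simulated data. Intervals that only touch stayed apart. A call counted as shared from 1 bp. Gene ends came from the RefSeq gene table of GRCh38.p14 (19974 protein-coding genes), and starts and strands from its promoter table, which covers 15812 of them. Of 30 gene lists, 6 symbols had no protein-coding match. The members, the gene lists and the tests were chosen with earlier results of these data known. Named genes were the first 12 by length kept, the first 6 by percent kept in domains of 5 kb or more, the 6 widest domains, the 3 on each side of 60 kb, and up to 4 per list; a few results that this rule names are not reported here. Alternatives are given in the closing section.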

Additional observations from a re-analysis of the deposited data

How the results depend on the processing

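Each of the 6 summary values was recomputed under up to 11 alternatives, 58 values in all. Of these, 32 stayed within the 95% interval of the reported value, or within 1.5 times for the count of 1857 domains. Requiring at least 50% of the domain to be called left 485 domains (3.59% retained), of which 80.6% carried EZH2 CPI-0209 and 32.4% a protein-coding gene end, with a median of 63.3% kept and 17.2 kb to EZH2 DMSO. Requiring 1 kb gave 13.1% retained. Counting only stretches under 2 H3K27me3 intervals left 16 domains (0.183% retained), with 17.5% kept, 18.8% near a gene end and 25.6 kb to EZH2 DMSO. Joining gaps under 5 kb gave 1185 domains, 27.1% kept, 32.7% near a gene end and 35.0 kb. Unmerged intervals gave 4113, 18.5% retained, 44.4% kept, 22.8% near a gene end and 17.2 kb. Leaving out domains within 5 kb of EZH2 DMSO gave 12.9% retained and 30.4 kb, by construction. Windows of 1 and 5 kb gave 24.9% and 33.1% near a gene end. Under the stricter EZH2 CPI-0209 list, limited to stretches under 2 intervals and chosen after seeing the data, 22.4% of retained and 2.45% of not retained domains carried EZH2. With both H3K27me3 lists limited to such stretches, 75% of 16 and 42.9% of 8732 did. The share was higher in retained domains under all 12 settings compared, the reported one included, by 19.95 to 60.5 percentage points. Where a value moved, the cause was not tested beyond the construction of the setting. No replicate could be left out with 1 library per group. No paired analysis was possible because each group has 1 library. Depth limits all calls and is unknown.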
